A study of Mus musculus with 14 samples.

Results

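Lipoprotein lipase and the main apolipoproteins are measured here in the livers of long-lived Snell dwarf mice and of wild type controls. The set holds 9 genes: the lipases Lpl and Lipc, the apolipoprotein genes Apoa1, Apoa2, Apoa4, Apob, Apoc3 and Apoe, and the receptor gene Scarb1. Members were found by their symbol in the array annotation, which gave 10 of the 12488 probe sets, for 7 of the 9 genes. Lipc and Apoc3 were not analysed here. Of the 10 probe sets, 9 passed the filter on low signals. The exception was a second Apoe probe set, 161321_i_at, whose highest signal was 136.0.

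Each of the 14 arrays held liver RNA of 1 mouse. There were 3 dwarf mice of 22 months (animals 3, 4 and 8), 3 wild type mice of 22 months (animals 1, 2 and 24), 4 dwarf mice of 6 months (animals 83, 85, 87 and 89) and 4 wild type mice of 6 months (animals 82, 84, 86 and 88). Dwarf mice carry a mutation of Pit-1, also called Pou1f1, a pituitary transcription factor without which growth hormone, prolactin and thyroid-stimulating hormone are not made, so several hormones are missing at once throughout the body. No sex, strain or batch stands in the labels, and no treatment is named. Because whole liver was used, fewer cells of a type and less RNA per cell cannot be told apart.

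Lipoproteins carry triglyceride and cholesterol through blood in particles coated with apolipoproteins. The liver packs triglyceride onto the protein product of Apob with the help of the transfer protein made by Mttp, and it secretes Apoa1 and Apoa2 protein for high density lipoprotein (HDL). Lipoprotein lipase, made mainly by fat and muscle and displayed on capillary walls, releases fatty acids from the triglyceride of circulating particles. It is abundant in the newborn rodent liver and low in the adult one. Apoe protein directs remnants of the particles back to liver receptors, and the product of Scarb1 takes up cholesterol ester from HDL.

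The values are MAS5 signals on a linear scale, in arbitrary units, with each array scaled to a common trimmed mean. Signals under 54.9, the 25th percentile of all values, were set to it before log2 was taken. Changes are log2 differences of group means ± standard error from limma, with p-values adjusted by the Benjamini-Hochberg method over all 7227 tested probe sets, and a change passed at an adjusted p under 0.05. The labelled tissue was checked against markers. The summed signal of 9 hepatocyte markers ran from 173617 to 285623, while of 7 adipocyte markers Retn and Cidec were below 54.9 on every array. Adipoq, Fabp4 and Cidea were between 32.2 and 270.6, Lep was between 513.5 and 1491 on its brighter probe set, and Pck1, which hepatocytes also express, was between 1097.9 and 5613. Animal 88 stood apart among the wild type mice of 6 months. It had the lowest mean log2 ratio of 3' to 5' control signal of all 14 arrays, at -0.04, and an 18S ribosomal RNA signal of 587.6, where the other 6-month arrays had 60.8 to 217.4 and the 22-month arrays 339.8 to 4852.8. Results that rest on this animal are given with and without it.

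At 6 months, the dwarf liver had far more Lpl signal and far less Apoa4 signal than the wild type liver. Of the 7 member genes, 3 rose in dwarf mice (Lpl, Apoa1 and Apoa2), 1 fell (Apoa4) and 3 did not pass (Apob, Apoe and Scarb1). Over all 5473 genes, each represented by its tested probe set of highest mean, 13.4% passed in this comparison, 345 of them higher and 388 lower in dwarf mice. The members' median log2 change was 0.40, against 0.09 over all genes.

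Lpl had 3995.7, 2529.8, 2638.7 and 3595.5 on probe set 95611_at in dwarf mice of 6 months, against 232.1, 408.1, 397.6 and 40.6 in wild type mice of that age. The lowest dwarf mouse lay above the highest wild type mouse by a wide margin, and animal 88, the lowest, was under the floor. The means were 3189.9 ± 719.6 in dwarf mice and 270 ± 173 in wild type mice (SD, n = 4 each), a log2 change of 3.88 ± 0.51 or 14.7-fold (adjusted p = 0.000103). Its other probe set, 160083_at, had 454.9, 750.8, 834.0 and 1250.4 in dwarf mice, against 129.0, 160.2, 151.1 and 108.2 in wild type mice. Here too the groups did not overlap, and the change was smaller, at 2.51 ± 0.37 or 5.70-fold (adjusted p = 0.000292). The probe set 160083_at passed the filter on low signals through the dwarf mice, with 7 of them and 1 wild type mouse above it. Both probe sets passed under all 12 other processing settings and with any 1 of the 14 arrays left out. The smallest change of 95611_at was 2.94, with the 3' to 5' ratio as a covariate, and without animal 88 it was 3.22.

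**Figure D1:**
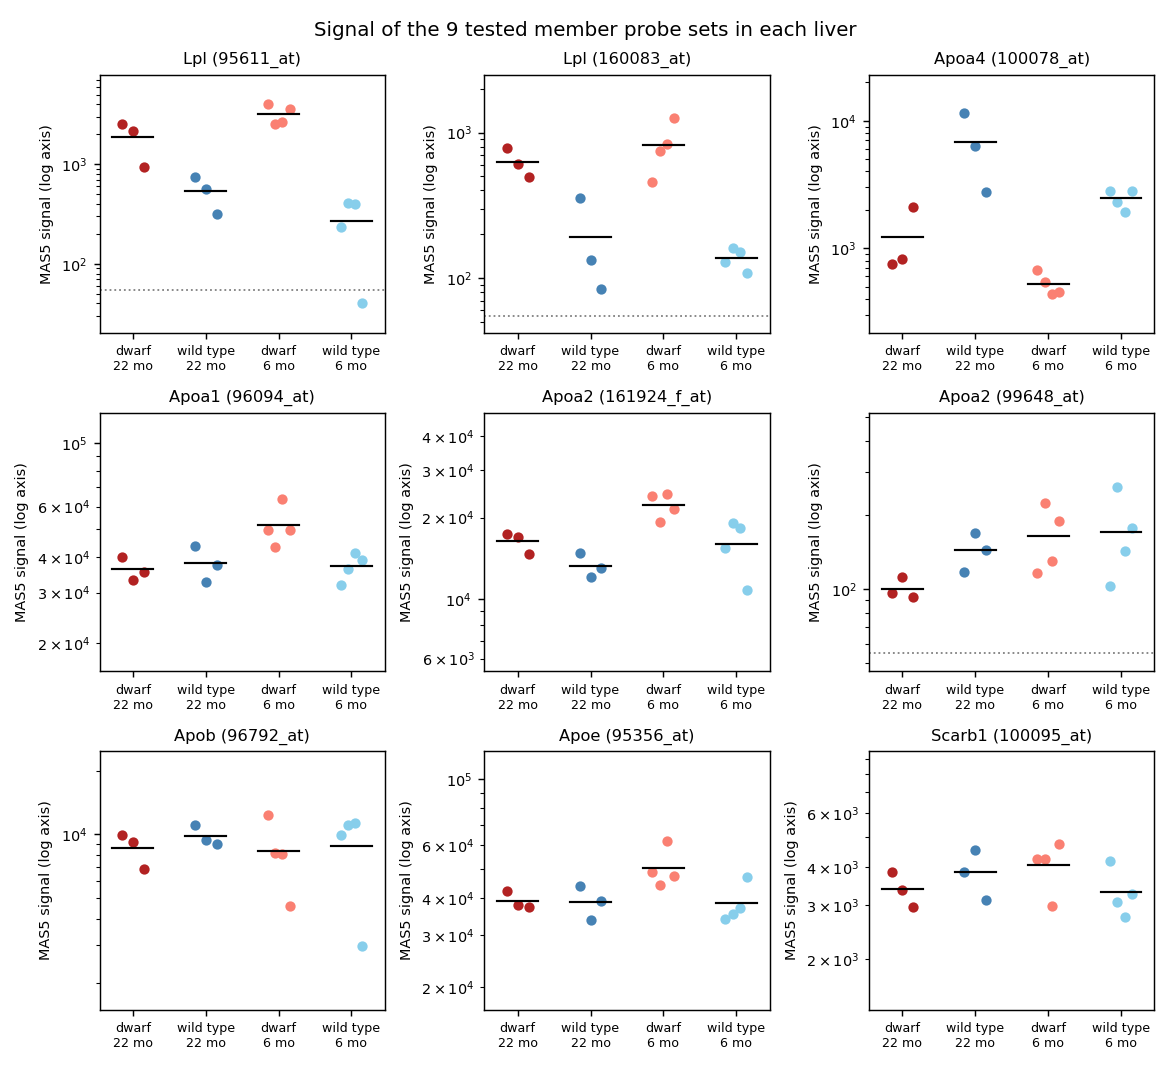
MAS5 signal (log axis) of the 9 tested member probe sets in each liver. Points are single mice, black lines are group means, and the dotted line is the floor of 54.9. The dwarf and wild type mice do not overlap at either age for either Lpl probe set or for Apoa4.

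The signals of other tissues known for lipoprotein lipase were set beside this change. None of the 4 tested adipocyte markers passed at 6 months. The summed signal over 7 genes ran from 3793.5 to 7042.9 in dwarf mice and from 3832.7 to 4673.3 in wild type mice. The largest part of this sum was Pck1, which hepatocytes also express, with means of 4122 in dwarf mice and 2830 in wild type mice. Adipoq, which encodes the fat cell hormone adiponectin and was not tested, had 40.7 to 135.7 in dwarf mice and 64.8 to 87.3 in wild type mice. The tested ones were Fabp4 (0.65 ± 0.41, adjusted p = 0.312), Cidea (0.52 ± 0.40, 0.415), Pck1 (0.48 ± 0.21, 0.144) and Lep (-0.07 ± 0.26, 0.885). None of 5 tested striated muscle markers passed, with sums over 9 genes of 922.2 to 2218.4 in dwarf mice and 1210.1 to 1518.3 in wild type mice. The same held for 8 tested markers of Kupffer cells and macrophages, with sums over 10 genes of 4873.3 to 5575.9 in dwarf mice and 4446.9 to 7806.1 in wild type mice. Endothelial markers did move: Kdr, Stab1 and Ramp2 rose, 3 of 6 tested, and the sums over 8 genes were 4385.9 to 5935.6 in dwarf mice and 3414.4 to 4558.5 in wild type mice. Markers of other cells rose too: Reln of 6 tested for stellate cells or fibroblasts, Cd79b and Ighm of 5 for lymphocytes, and 3 of 9 for hepatocytes. Cd79b passed the filter on low signals only through dwarf mice. Over all genes 13.4% passed at this age. The part of these cells in the Lpl change was not tested.

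Among the HDL apolipoproteins, Apoa1 and Apoa4 differed in direction at 6 months, although they are neighbours. The Apoa1 rise of 0.47 passed under 3 of the 12 other settings, and it was 0.07 with quantile normalization (adjusted p = 0.586). At 22 months Apoa1 changed by -0.06 (adjusted p = 0.967). Both genes lie on mouse chromosome 9 with Apoc3 between them and Apoa5 after them in the RefSeq annotation. Apoa1 encodes the main protein of HDL and Apoa4 a protein of HDL and of the particles made from dietary fat, which in rodents both intestine and liver express. The 250 bases before the annotated start of each are shown because these 2 genes of 1 cluster moved in opposite directions at 6 months as deposited. The sequences are RefSeq's, build GRCm38.p6, plus strand, chr9:46228380-46228629 for Apoa1 and chr9:46240594-46240843 for Apoa4, and capitals mark the searched motif that was found.
Apoa1: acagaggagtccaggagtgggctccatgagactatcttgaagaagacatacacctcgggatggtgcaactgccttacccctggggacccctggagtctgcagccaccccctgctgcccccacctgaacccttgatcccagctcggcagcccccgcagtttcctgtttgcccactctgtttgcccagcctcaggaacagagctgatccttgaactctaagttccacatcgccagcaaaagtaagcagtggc
Apoa4: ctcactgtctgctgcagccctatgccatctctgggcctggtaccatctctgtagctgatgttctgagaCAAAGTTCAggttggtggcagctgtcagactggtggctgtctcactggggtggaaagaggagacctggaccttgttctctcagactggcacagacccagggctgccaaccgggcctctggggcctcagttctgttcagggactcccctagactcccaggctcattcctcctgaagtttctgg
The following motifs were searched on both strands: CAAAGTNCA, the core bound by the hepatocyte factor HNF4, AGGTCA, the half-site of nuclear receptors, and TATAAA, the TATA box. The Apoa4 window held the first, on the plus strand from base -182 to base -174 before the start, where it overlapped no other motif, and in the Apoa1 window none of the 3 was found. Of 32851 mouse promoter windows of the same length, 1.19% held CAAAGTNCA, 14% (4607 windows) held AGGTCA and 12.4% held TATAAA. A match describes the letters and is no evidence of binding.

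Apoa4 had 669.0, 539.3, 433.7 and 455.9 in dwarf mice of 6 months, against 2807.7, 2289.0, 1912.5 and 2809.7 in wild type mice of 6 months. All 4 dwarf mice lay below all 4 wild type mice. The means were 524 ± 107 in dwarf mice and 2455 ± 437 in wild type mice (SD, n = 4 each), so that Apoa4 fell 4.69-fold (log2 -2.23 ± 0.37, adjusted p = 0.000798). This change passed under all 12 other settings and without any 1 array, with log2 changes between -2.44 and -2.12. Apoa5, whose protein aids lipoprotein lipase, lies next to it and changed by 0.06 ± 0.19 (adjusted p = 0.857). Fabp2, an intestinal fatty acid binding protein listed among the enterocyte markers, also fell, to 132 ± 41.7 in dwarf mice against 1937 ± 184 in wild type mice (log2 -3.93 ± 0.31, adjusted p = 4.58e-07). Fabp2 was 1 of 2 tested enterocyte markers. The other, Anpep, which encodes an aminopeptidase, averaged 1405 ± 368 in dwarf mice and 1317 ± 295 in wild type mice and did not pass (0.08 ± 0.19, adjusted p = 0.806). Of the untested ones, Vil1 reached 46.4 in dwarf mice and 13.1 in wild type mice, below the floor, and Cdx2 reached 144.2 in dwarf mice and 72.4 in wild type mice. The summed signal of all 4 ran from 1320.5 to 2042.4 in dwarf mice and from 3071.3 to 3540.2 in wild type mice, and Fabp2 was the only one of the 4 with a lower mean in dwarf mice. The part of enterocytes in the Apoa4 change was not tested.

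Apoa1 had 49751.4, 43514.9, 63772.3 and 49636.8 in dwarf mice of 6 months, against 31874.2, 36246.3, 41424.0 and 38889.9 in wild type mice. The groups did not overlap, but the lowest dwarf mouse was close to the highest wild type mouse. The log2 change was 0.47 ± 0.14, or 1.39-fold (adjusted p = 0.0358). Apoa2, which encodes the second most abundant protein of HDL, had 24141.6, 19263.6, 24428.1 and 21465.4 on probe set 161924_f_at in dwarf mice, against 15441.6, 19172.9, 18298.3 and 10776.3 in wild type mice. The nearest values, of dwarf animal 85 and wild type animal 84, differed little. Its change was 0.52 ± 0.16, or 1.43-fold (adjusted p = 0.0463). The second Apoa2 probe set, 99648_at, did not pass: dwarf mice had 92.6 to 223.2 over both ages and wild type mice 102.7 to 260.8, and the 6-month change was -0.02 ± 0.33 (adjusted p = 0.972). In the maker's naming the _f suffix marks a probe set that can match related sequences.

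The calls of Apoa1 and Apoa2 depended on the scaling, and those of Lpl and Apoa4 did not. Scaled to the median signal, Apoa1 changed by 0.27 (adjusted p = 0.245) and Apoa2 by 0.32 (0.251). With quantile normalization the values were 0.07 (0.586) for Apoa1 and 0.43 (0.066) for Apoa2. Each passed under 3 of the 12 other settings. Both calls were also lost without the filter on low signals (adjusted p = 0.136 for Apoa1 and 0.107 for Apoa2). The same held without a variance trend, with array weights and with only the 2 groups fitted. It held too with the 3' to 5' ratio or the 18S signal as a covariate. Apoa1 lost its call without wild type animal 82 (0.40, adjusted p = 0.1) or 84 (0.46, 0.0699) and without dwarf animal 87 (0.36, 0.102) or 89 (0.48, 0.0614). Apoa2 kept its call in 3 of the 14 fits that left out 1 array, and its change was 0.34 (0.108) without animal 88. Alb, the gene of albumin and the most typical hepatocyte product, moved by a like amount, 0.44 ± 0.13 (adjusted p = 0.0338), to 58766 ± 10178 in dwarf mice against 42858 ± 3320.4 in wild type mice. Among the hepatocyte markers 3 of 9 rose (Cps1, Alb and Ahsg) and none fell, where 13.4% of all genes passed. Over all tested probe sets the median change was 0.10 as deposited and 0.02 with quantile normalization. It was -0.10 after median scaling and -0.11 when arrays were scaled to the hepatocyte markers. Of the probe sets that passed, 47.8% were higher in dwarf mice as deposited and 42.2% with quantile normalization. The share was 18.2% after median scaling and 17.2% after scaling to the hepatocyte markers.

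**Figure D2:**
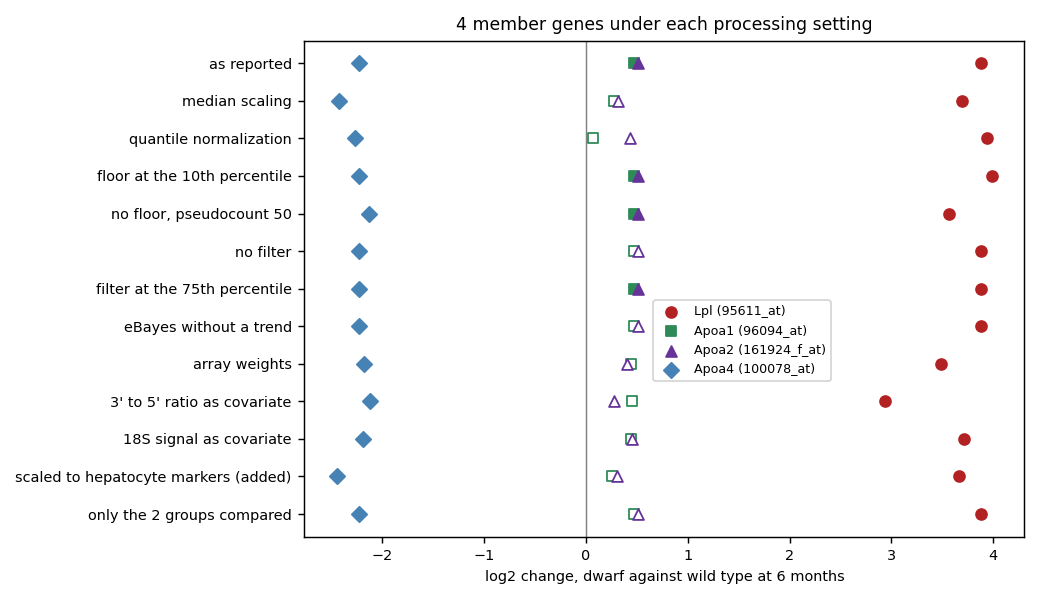
Log2 change of 4 member genes, dwarf against wild type at 6 months, under the reported setting and each of the 12 other settings. Filled symbols passed at an adjusted p under 0.05 and open symbols did not. Lpl and Apoa4 passed under every setting plotted, and Apoa1 and Apoa2 each passed under 3 of the 12.

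Apoe, Apob and Scarb1 did not pass at 6 months. Apoe had 48897.3, 43983.6, 62023.1 and 47268.0 on probe set 95356_at in dwarf mice, against 33971.6, 35325.9, 37098.3 and 46891.5 in wild type mice. Animal 88 was the wild type mouse that reached into the dwarf range. The change was 0.40 ± 0.14 (adjusted p = 0.0696), and without animal 88 it was 0.50 (adjusted p = 0.0269). Dwarf animal 87 had the highest Apoe and Apoa1 signals of all 14 mice, as well as the highest mean of the hepatocyte markers. Next to Apoe on chromosome 7 lie Apoc1, Apoc4 and Apoc2, which encode small exchangeable apolipoproteins, that of Apoc2 being the activator of lipoprotein lipase. Apoc1 rose by 0.49 ± 0.12 (adjusted p = 0.0116), while Apoc4 changed by 0.26 ± 0.16 (0.305) and Apoc2 by -0.37 ± 0.22 (0.279). The Apoc1 call was lost after median scaling and after scaling to the hepatocyte markers.

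Apob, the structural protein gene of very low density lipoprotein, had 12328.0, 8214.3, 8103.1 and 4617.2 in dwarf mice of 6 months, against 9985.9, 11065.7, 11327.8 and 2978.1 in wild type mice. The groups overlapped throughout, each with 1 low mouse, dwarf animal 89 and wild type animal 88. The change was 0.01 ± 0.36 (adjusted p = 0.994), and without animal 88 it was the lowest of those with 1 array left out, at -0.46. Scarb1, the gene of the HDL receptor SR-BI, had 4234.6, 4257.6, 2982.0 and 4755.8 in dwarf mice, against 4189.1, 3061.2, 2738.7 and 3255.9 in wild type mice. Dwarf animal 87 lay within the wild type range, and the change of 0.29 ± 0.17 did not pass (adjusted p = 0.28).

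At 22 months, Apoa4 was again lower in dwarf mice. By the same test Lpl was higher on 1 of its 2 probe sets, 160083_at, which could be tested only because it was high in dwarf mice. No other member passed. Counted by the probe set of highest mean, 1 of the 7 member genes passed, Apoa4, which fell, and 1 more, Lpl, had an unadjusted p under 0.05. Over all genes 2.87% passed, 76 higher and 81 lower in dwarf mice, and 554 more of the 5473 had an unadjusted p under 0.05. The members' median change was -0.06, against 0.00 over all genes.

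Apoa4 had 749.2, 821.0 and 2103.2 in dwarf mice of 22 months, against 11515.5, 6285.1 and 2738.8 in wild type mice of 22 months. The groups did not overlap, though both were widely spread, with dwarf animal 8 high and wild type animal 24 low in its group. The means were 1224 ± 762 in dwarf mice and 6846 ± 4415 in wild type mice (SD, n = 3 each), a 5.35-fold fall (log2 -2.42 ± 0.43, adjusted p = 0.00289). It passed with any 1 array left out, between -2.96 and -1.93, and it missed the threshold when only the 6 arrays of that age were fitted (adjusted p = 0.0516).

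Lpl had 2547.9, 2141.9 and 944.1 on 95611_at in dwarf mice of 22 months, against 748.4, 560.9 and 319.2 in wild type mice of 22 months. No dwarf mouse was below a wild type mouse, and animal 8 was the lowest of the dwarf mice. The means were 1878 ± 834 in dwarf mice and 543 ± 215 in wild type mice (SD, n = 3 each), and the change of 1.75 ± 0.59, or 3.38-fold, did not pass (adjusted p = 0.151). On 160083_at, dwarf mice had 787.7, 605.0 and 495.1, against 354.4, 134.2 and 84.3 in wild type mice. These groups did not overlap either, and here the change of 1.96 ± 0.43, or 3.89-fold, passed (adjusted p = 0.017).

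The 22-month call of Lpl thus depended on the probe set, on single animals and on the processing. For 95611_at, the adjusted p was 0.0143 without the 6-month wild type animal 88, which leaves the change itself as it was, 0.0145 with array weights and 7.28e-05 with the 3' to 5' ratio as a covariate, where the change was 2.24. For 160083_at, the call was lost without wild type animal 2 (adjusted p = 0.0737) or 24 (0.0913), without dwarf animal 3 (0.101) or 4 (0.0572), without the filter on low signals (0.0951) and when only the 2 groups were fitted (0.0642). All log2 changes under these alternatives lay between 1.41 and 2.54. Kupffer cell and macrophage markers differed at this age: Clec4f and Mpeg1 fell, 2 of 8 tested, where 2.87% of all genes passed. Their sums were 4442.4 to 5189.2 in dwarf mice and 6952.9 to 9948 in wild type mice. Their part in the Lpl difference was not tested.

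The remaining members had overlapping groups at 22 months, apart from the dim Apoa2 probe set 99648_at, which did not pass (-0.51 ± 0.38, adjusted p = 0.698). Apoa1 had 40030.8, 33346.0 and 35466.5 in dwarf mice, against 43685.1, 32598.5 and 37613.5 in wild type mice, a change of -0.06 ± 0.16 (adjusted p = 0.967). Apoa2 on 161924_f_at had 17362.4, 16987.2 and 14715.3 in dwarf mice, against 14834.5, 12012.0 and 13010.0 in wild type mice. The Apoa2 change of 0.30 ± 0.19 did not pass (adjusted p = 0.579), and dwarf animal 8 lay just within the wild type range. Apoe had 42090.7, 37783.2 and 37339.2 in dwarf mice, against 43937.9, 33669.5 and 38879.6 in wild type mice (0.02 ± 0.16, adjusted p = 0.991). Alb had like means at this age, 43146 ± 3338 in dwarf mice and 43251 ± 4836 in wild type mice. Apob averaged 8677 ± 1589 in dwarf mice and 9809.7 ± 1084 in wild type mice (-0.19 ± 0.42, adjusted p = 0.959). Scarb1 averaged 3385 ± 450.1 in dwarf mice and 3838 ± 711 in wild type mice (-0.17 ± 0.20, adjusted p = 0.859; SD, n = 3 each).

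**Figure D3:**
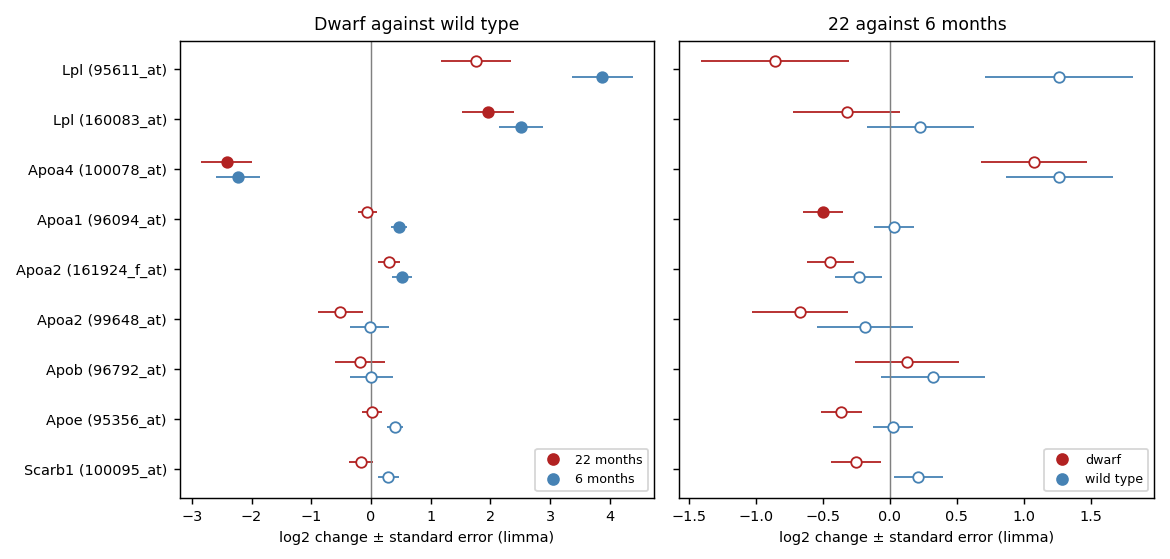
Log2 change ± standard error (limma) of the 9 tested member probe sets. The left panel sets dwarf against wild type mice at 22 and at 6 months, the right panel 22 against 6 months in dwarf and in wild type mice. Filled symbols passed at an adjusted p under 0.05: both Lpl probe sets, Apoa4, Apoa1 and Apoa2 (161924_f_at) at 6 months, Apoa4 and Lpl (160083_at) at 22 months, and Apoa1 with age in dwarf mice.

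With age in dwarf mice, Apoa1 fell and no other member gene passed. Over all genes 16.4% passed in this comparison, 435 higher and 465 lower at 22 months, and the members' median change was -0.36, against -0.08 over all genes. Apoa1 averaged 36281 ± 3416 in dwarf mice of 22 months (SD, n = 3) and 51669 ± 8579 in dwarf mice of 6 months (SD, n = 4), a change of -0.50 ± 0.15 (adjusted p = 0.0348). The ages did not overlap. Apoa2 (-0.45 ± 0.18, adjusted p = 0.0919), Apoe (-0.36 ± 0.15, 0.109) and Apoa4 (1.08 ± 0.40, 0.0751) had unadjusted p-values under 0.05, and their ages did not overlap either. Of all 5473 genes, 874 had an unadjusted p under 0.05 by limma without passing. The share of all genes whose ages did not overlap was not counted. Lpl changed by -0.86 ± 0.55 on 95611_at (adjusted p = 0.298) and Scarb1 by -0.25 ± 0.19 (0.377). Under the 12 other settings this Lpl change ran from -0.97 to 1.27 and passed under none. It was a rise only with the 3' to 5' ratio as a covariate. Alb fell by a like amount as Apoa1, -0.43 ± 0.14 (adjusted p = 0.0462), with 2 other hepatocyte markers, Serpina1e and Tat, of 9.

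Scaling moved these age changes. The Apoa1 change was -0.30 after median scaling (adjusted p = 0.216), -0.13 when scaled to the hepatocyte markers (0.437) and -0.10 after quantile normalization (0.455), and it lost its call without dwarf animal 3 (0.0568), 4 (0.124), 8 (0.0895), 87 (0.0855) or 89 (0.0567). Apoa4 passed after median scaling (1.28, adjusted p = 0.0425) and when scaled to the hepatocyte markers (1.45, 0.0125), and also without wild type animal 1 (0.0433) or 24 (0.0337), which left its change at 1.08. Without animal 88, Apoa2 passed (adjusted p = 0.0296) with its change as before. The median change of all tested probe sets was -0.09 as deposited, 0.12 after median scaling and 0.29 when scaled to the hepatocyte markers. The share of calls that were higher at 22 months was 48.1%, 79.3% and 93.1% in those settings. With quantile normalization the median change was -0.005 and the share 55.4%. The mean log2 ratio of 3' to 5' control signal was 0.185 ± 0.148 in dwarf mice of 22 months and 0.948 ± 0.168 in dwarf mice of 6 months (SD), without overlap.

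With age in wild type mice, none of the 7 member genes passed by limma, and Lpl and Apoa4 had unadjusted p-values under 0.05. Over all genes 2.48% passed, 77 higher and 59 lower at 22 months, and 827 more of the 5473 had an unadjusted p under 0.05. The members' median change was 0.21, against -0.02 over all genes. Apoa4 averaged 6846 ± 4415 in wild type mice of 22 months and 2455 ± 437 in those of 6 months, a change of 1.27 ± 0.40 (adjusted p = 0.105). Animals 1 and 2 lay above every 6-month mouse and animal 24 lay among them, and without animal 24 the change was 1.81 (adjusted p = 0.0327). Lpl changed by 1.26 ± 0.55 on 95611_at (adjusted p = 0.243) and by 0.23 ± 0.40 on 160083_at (0.815). With 1 array left out, the change of 95611_at ran from 0.61 to 1.60 and passed in none of the 14 fits. With the 3' to 5' ratio as a covariate the change of 95611_at was 1.97 (adjusted p = 0.00158). The other members changed by between -0.23 (Apoa2) and 0.32 (Apob), and none of them passed. With 1 array left out, the Apob change ran from -0.14 to 0.50.

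The difference between dwarf and wild type mice was not shown to change with age for any member. None of the 7 genes passed the interaction test of limma, against 2.34% of all genes (96 higher and 32 lower). Lpl (95611_at, -2.12 ± 0.78, adjusted p = 0.209) and Apoa1 (-0.53 ± 0.21, 0.265) had unadjusted p-values under 0.05 without passing, and so had 662 of all 5473 genes. Under the 11 other settings this Lpl interaction ran from -2.23 to -0.70, smallest in size with the 3' to 5' ratio as a covariate, and passed under none. With 1 array left out it ran from -2.46 to -1.47 and passed in none of the 14 fits. The interaction of Apoa4 was -0.19 ± 0.56 (adjusted p = 0.921), that of Apoe -0.38 ± 0.21 (0.434) and that of Scarb1 -0.46 ± 0.26 (0.45).

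Ordered by mean signal, Lpl on 95611_at was highest in dwarf mice of 6 months, then in dwarf mice of 22 months, wild type mice of 22 months and wild type mice of 6 months. No neighbouring pair in this order passed its test. For Apoa4 the order was wild type mice of 22 months, wild type mice of 6 months, dwarf mice of 22 months and dwarf mice of 6 months. Neither age step passed, and dwarf animal 8, at 2103.2, lay within the range of the wild type mice of 6 months.

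The genes whose pattern was most like each were found by the root mean square difference of log2 signals, each centred on its own mean, over the 14 arrays and among 5472 other genes. Closest to Lpl on 95611_at were Pla2g12a (0.72), a secreted phospholipase, Il1rn (0.83), the interleukin 1 receptor antagonist, Gucy2c (0.92), a guanylate cyclase receptor, Igfbp1 (0.98), an insulin-like growth factor binding protein, and Abcd2 (1.02), a peroxisomal fatty acid transporter, where the median over all genes was 1.76. Igfbp1 averaged 9913 in dwarf mice of 6 months, 267 in wild type mice of 6 months, 3958 in dwarf mice of 22 months and 1009 in wild type mice of 22 months. Closest to Apoa4 were Ctsc (0.57), a lysosomal protease, Pltp (0.60), the phospholipid transfer protein, Ifi47 and Idi1 (0.70 each) and Hes6 (0.71), with a median of 1.47. The 2 Lpl probe sets differed by 0.86 on this scale, where Lpl on 95611_at itself varied by 1.74 about its mean. The 2 Apoa2 probe sets differed by 0.55. Apoa2 on 161924_f_at varied less over the arrays than Lpl, so the smaller value is not a closer match. The 6-month changes of the Apoa2 probe sets were 0.52 and -0.02.

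Lipases and proteins that act on lipoproteins in blood or on stored fat formed a list of 17 genes, of which 12 were tested. At 6 months 1 rose and 5 fell in dwarf mice, with a median change of -0.44. Ces3a, a liver carboxylesterase, fell to 1517 ± 1068 in dwarf mice against 17420 ± 2169 in wild type mice (-3.83 ± 0.37, adjusted p = 4.44e-06). Pltp, whose protein moves phospholipid between lipoproteins, ran from 240.4 to 453.3 in dwarf mice and from 1237.8 to 2554.1 in wild type mice (-2.40 ± 0.32, adjusted p = 0.000126). Mgll, a monoglyceride lipase, fell by 1.36 on the log2 scale. Lmf1, which helps lipoprotein lipase to fold, fell by 0.66 and Aadac by 0.57, while the esterase gene Ces1d rose by 0.68. At 22 months Pltp alone of the 12 passed, with 514.0 to 645.9 in dwarf mice and 1029.0 to 3754.8 in wild type mice (-1.89 ± 0.37, adjusted p = 0.00753), a call lost without the filter on low signals (0.0642). Pltp, Mgll and Ces3a at 6 months passed under every setting and left-out array, whereas Ces1d was lost after median scaling and after scaling to the hepatocyte markers. Lmf1 was lost with the 3' to 5' covariate and without dwarf animal 89 and Ces1d without animal 89, with adjusted p-values of at most 0.0733 for Lmf1 and 0.155 for Ces1d. Aadac was lost with only the 2 groups fitted (0.0511).

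In the list of other apolipoproteins and assembly genes, 13 of 16 were tested, and 2 rose and 2 fell at 6 months. Mttp, the triglyceride transfer protein gene, ran from 82.1 to 181.0 in dwarf mice and from 215.7 to 283.4 in wild type mice (-1.07 ± 0.25, adjusted p = 0.0108), a call lost with only the 2 groups fitted (0.0521). Saa4, an apolipoprotein of HDL, fell by 1.56 (adjusted p = 0.023), and Apoc1 and Apom, which encodes another HDL protein, rose. Apom rose by 0.81 ± 0.25 (adjusted p = 0.0401), and it kept its call under 6 of 12 settings and in 8 of 14 fits with 1 array left out, not without animal 88 (0.108). Saa4 kept its call under 10 of 12 settings and in 10 of those 14 fits, again not without animal 88 (0.0647). Without that animal 1 gene of this list rose and 1 fell. At 22 months Sar1b, which encodes a small GTPase that carries nascent particles out of the endoplasmic reticulum, rose by 0.64 ± 0.14 (adjusted p = 0.021). The Sar1b call was lost after median scaling, after scaling to the hepatocyte markers and without animals 1, 24 or 3, with adjusted p-values up to 0.139.

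Of the 56 tested genes of the 5 pathway lists, 8 rose and 9 fell in dwarf mice at 6 months, or 30.4%, where 13.4% of all genes passed. At 22 months 2 rose and 2 fell, or 7.14%, against 2.87% of all genes. With age in dwarf mice 7 rose and 5 fell, or 21.4%, against 16.4% of all genes. With age in wild type mice 2 rose, or 3.57%, against 2.48% of all genes. The interaction test was passed by 4 of the 56, or 7.14%, where 2.34% of all genes passed. Because the lists were chosen with earlier results of these data known, these shares are no test of the lists. None of the 4 interaction calls was kept with the 3' to 5' ratio as a covariate. Mttp had 298.0 to 527.2 in dwarf mice of 22 months and 224.1 to 249.4 in wild type mice of 22 months, which turned its 6-month order round (interaction 1.78 ± 0.39, adjusted p = 0.0266). The 22-month difference of Mttp did not itself pass (0.72 ± 0.29, adjusted p = 0.283). Sar1b had an interaction of 0.96 ± 0.19 (adjusted p = 0.0195), Ces3a of 2.59 ± 0.57 (0.0288) and Apom of -1.55 ± 0.38 (0.0448). The calls of Mttp, Ces3a and Apom were also lost without the filter on low signals, those of Ces3a and Apom without a variance trend, and Apom kept its call under 5 of 11 settings. With 1 array left out, the interaction kept its call in 12 of 14 cases for Sar1b (lost without animals 24 or 3), 10 for Mttp, 7 for Ces3a and 3 for Apom, with adjusted p-values of at most 0.175. With age in dwarf mice Mttp rose 3.22-fold (1.69 ± 0.27, adjusted p = 0.00168), and P4hb, its partner subunit, rose by 1.13 (0.0263). Neither age call was kept with the 3' to 5' ratio or the 18S signal as a covariate, where the adjusted p-values of Mttp reached 0.0904 and those of P4hb 0.68.

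Receptors and uptake genes were 16, with 11 tested. At 6 months 1 fell, Pdzk1, whose protein holds SR-BI at the hepatocyte surface, with 514.2 to 776.0 in dwarf mice and 903.0 to 1102.3 in wild type mice (-0.73 ± 0.16, adjusted p = 0.00687). At 22 months 1 fell, Lsr, a receptor that takes up remnant particles, with 1862.5 to 1971.2 in dwarf mice and 3294.0 to 5463.1 in wild type mice (-1.20 ± 0.18, adjusted p = 0.000615). Both calls were kept under every setting and left-out array. Lsr also rose with age in wild type mice (0.81 ± 0.16, adjusted p = 0.0195), a call lost without wild type animals 2, 24, 84 or 86, with the 18S signal as a covariate and with only the 2 groups fitted, with adjusted p-values up to 0.335. Of the 9 genes of cholesterol export and HDL, 4 were tested, and at 6 months Npc1, a lysosomal cholesterol transporter, rose by 1.31 ± 0.31 (adjusted p = 0.0107) and the exporter gene Abcg1 by 0.59 ± 0.18 (0.0431). The Npc1 call was lost without the filter on low signals (0.0524). The Abcg1 call was kept under 4 of 12 settings and was lost without animal 88 (0.0864). Abca1, the exporter that loads Apoa1 protein with cholesterol, changed by -0.08 ± 0.15 (adjusted p = 0.75).

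Nuclear regulators known to act on these genes were 25, of which 16 were tested, and 3 rose and 1 fell at 6 months. Srebf1, a driver of fatty acid synthesis, ran from 1621.0 to 2930.7 in dwarf mice and from 5484.9 to 9011.3 in wild type mice (-1.45 ± 0.23, adjusted p = 0.00056), a call kept under every setting and left-out array. Pparg, the adipocyte nuclear receptor for which Lpl is a known target in fat cells, had 142.8 to 295.7 in dwarf mice and 31.7 to 131.3 in wild type mice at 6 months (1.33 ± 0.36, adjusted p = 0.0225). At 22 months Pparg had 224.8 to 275.8 in dwarf mice and 7.1 to 88.1 in wild type mice (1.76 ± 0.42, adjusted p = 0.0276). The groups did not overlap at either age, and 3 of the 7 wild type mice were under the floor. Pparg passed the filter on low signals only through dwarf mice, 6 of which and no wild type mouse lay above it, so it could be tested only because it was high in them. Its 6-month call was kept under 6 of 11 settings and was lost with quantile normalization, the lower floor, the 3' to 5' covariate, hepatocyte scaling or only the 2 groups. It was also lost without animals 86, 88 (0.0563) or 89, with adjusted p-values of at most 0.0809 over all of these. Its 22-month call was lost with the lower floor and without any 1 of the 6 arrays of that age (at most 0.122). Nr5a2 and Thra rose by 0.49 and 0.55 at 6 months, and were kept under 5 (Nr5a2) and 7 (Thra) of 12 settings, not after median scaling or without animal 88 (adjusted p = 0.0986 for Nr5a2 and 0.0698 for Thra). Ppara, a nuclear receptor for fatty acids, changed by -0.41 ± 0.16 at 6 months (adjusted p = 0.11).

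**Figure D4:**
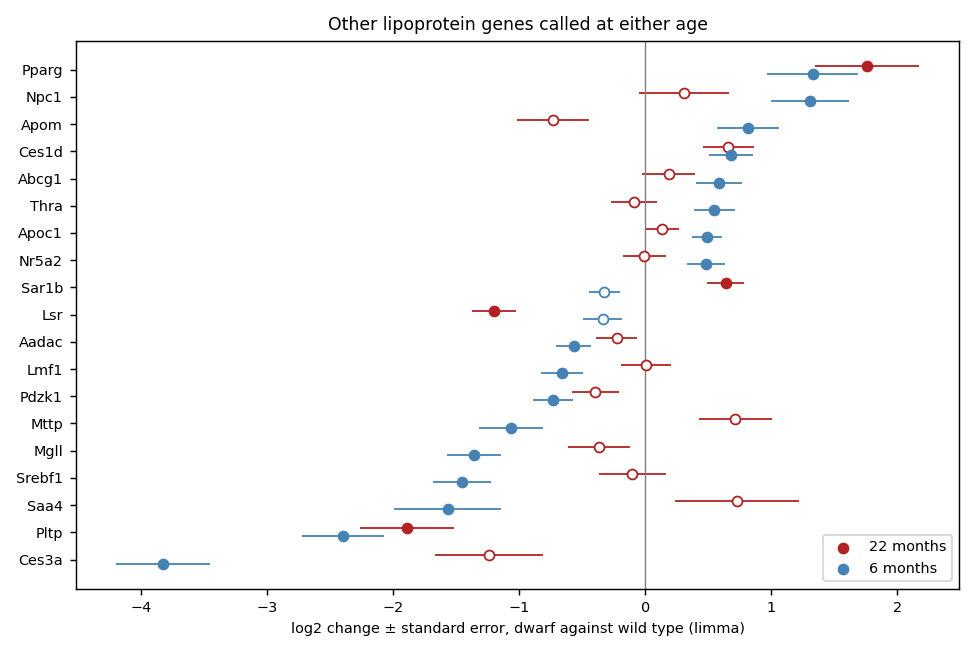
Log2 change ± standard error (limma), dwarf against wild type, of the genes of the 5 pathway lists that passed at 22 or at 6 months. Filled symbols passed at an adjusted p under 0.05 and open symbols did not. Pltp and Pparg passed at both ages, Lsr and Sar1b at 22 months, and the other genes at 6 months.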

How the data were processed

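Liver RNA of 14 mice was hybridised to 1-colour Affymetrix arrays, 1 mouse per array. The deposited values are linear signal intensity per probe set, for which the submitters' processing notes name MAS5 as the authors' tool. On every array their mean after trimming 2% at each end lay between 500.36 and 500.44, so they were used as deposited. Detection calls, the software version and the genome build are not given in the sources used here. Intensities were floored at 54.9, probe sets had to exceed the overall median, 184.8, in 3 or more mice to be tested, and 66 control probe sets were left out, which kept 7227 probe sets and 5473 genes. Of 12488 probe sets, 10855 had 1 gene symbol, 396 several and 1237 none. Group means of log2 signal were estimated jointly from the 14 arrays (limma 3.58.1, trended eBayes, R 4.3.3). The fit was tested on simulated data. Named genes were all members, the neighbours of Apoa1 and Apoe, and the 5 genes most alike in pattern. Of the 5 pathway lists, genes that passed between genotypes or in the interaction test were named, and age calls only in part. Genes of the pathway lists are given by their tested probe set of highest mean only. Some of them, such as Sar1b, Ces1d, P4hb, Nr5a2, Pdzk1 and Lsr, had another tested probe set. Alternatives were other scalings, floors, filters, variance models, covariates (3' to 5' ratio, 18S signal), fits of 2 groups alone and leaving out each array. Scaling to hepatocyte markers was added after seeing the data. The members and lists were chosen with earlier results of these data known. The number of arrays limits the precision.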

Additional observations from a re-analysis of the deposited data

Results flagged for a closer look

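Apob in the 6-month wild type animal 88 was far from its group, at 2978.1 where the nearest mouse had 9985.9. The same animal stood high for Lmf1, at 1537 against 1024.9 in the nearest mouse of its group, and for Srebf1, at 9011.3 against 5631.5. Dwarf animal 83 stood high among dwarf mice of 6 months for Pdzk1, at 776 against 548.8. In all, 66 groups of 4 mice were checked in this way, 20 of them of member probe sets, and chance flags about 1 in 20. Without animal 88, Srebf1 and Lmf1 still fell at 6 months (adjusted p = 0.00201 and 0.0422). The genotype difference changed with age by limma's interaction test for Ces3a (2.59, adjusted p = 0.0288), Mttp (1.78, 0.0266), Apom (-1.55, 0.0448), Sar1b (0.96, 0.0195) and Fabp2 (3.11, 0.00379), all as log2 values, positive where the dwarf mice stood higher relative to wild type mice at 22 than at 6 months. The calls of Ces3a, Mttp, Apom and Sar1b were lost with the 3' to 5' ratio as a covariate. Their adjusted p-values were at most 0.131, 0.101, 0.175 and 0.0637 over all alternatives. The Fabp2 interaction was not examined under the alternatives.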

How the results depend on the processing

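No paired analysis was possible because the groups share no animal numbers. At 6 months 4 member genes passed as reported, and 2 (Lpl and Apoa4) passed with median scaling, quantile normalization, no filter, no variance trend, array weights, either covariate, hepatocyte scaling or only the 2 groups fitted; 1 array left out gave 2 to 4. At 22 months 1 passed as reported, 2 with the lowest-mean probe set, array weights or the 3' to 5' covariate, 0 with only the 2 groups, and 1 to 2 with 1 array left out. With age in dwarf mice 1 passed as reported, 0 with quantile normalization, no filter, no trend, either covariate or only the 2 groups, and 0 to 2 with 1 array left out. With age in wild type mice 0 passed as reported, 1 with the 3' to 5' covariate, and 0 to 1 with 1 array left out. Over all probe sets, 962 passed at 6 months and 630 with only the 2 groups. At 22 months 212 passed, 442 with array weights, and 126 to 241 with 1 array left out. With age in dwarf mice 1193 passed, 51 with the 3' to 5' covariate, 110 with the 18S covariate, and 520 to 1453 with 1 array left out. With age in wild type mice 180 passed, 106 with median scaling, 102 with no filter, 90 without the trend, 472 with array weights, 9 with the 18S covariate, 76 with only the 2 groups, and 59 to 456 with 1 array left out. For the interaction 158 passed, 69 with no filter, 64 without the trend, 57 with the 3' to 5' covariate, and 46 to 169 with 1 array left out. The cause of these moves was not tested. No member called in either fit changed direction. Both control measures move with age, so the ages and array quality cannot be told apart. Signals near the floor, as of Lpl and Pparg in wild type mice, limit the size of their folds.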
